A study of Homo sapiens with 3 samples.

Results

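Transcript levels under tamoxifen were compared with those under estradiol in T47D cells. T47D is a luminal breast cancer line of human origin with receptors for both estrogen and progesterone. The comparison rests on 2 of the 3 arrays of the series, 1 per compound. Cells of both groups spent 4 h in medium whose serum (10%) had been stripped of steroids with charcoal, and then 3 h with 1 uM of estradiol or of tamoxifen in such medium. The remaining array came from cells given 0.1% ethanol as vehicle for 3 h, and it entered no difference reported here. Its values are printed beside some genes as the level without either compound. Each gene's value was the tamoxifen value minus the estradiol value, taken per probe set and summarised per gene by the median of its probe sets, and 19775 genes had one. All measured genes were kept, whatever their value. The series holds a single culture per compound as far as the labels tell, from 1 cell line, so no test between samples was possible and no difference has a replicate check.

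Estradiol is a steroid and the natural ligand of the estrogen receptor. Bound to it, the receptor recruits coactivators at estrogen response elements or through partners such as AP-1 and SP1, and a set of genes for transcription factors, signalling proteins and cell cycle regulators responds within hours. Tamoxifen is a nonsteroidal triphenylethylene that binds the same pocket but moves the last helix of the ligand-binding domain, so that coactivators are poorly recruited and corepressors can bind. It acts as an antagonist in breast cells and as a partial agonist in some other tissues, and much of its activity in patients comes from hydroxylated metabolites made in the liver. The pair of compounds was compared at a matched dose and time.

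Values were deposited as log2 expression with a centre subtracted from each probe set, so a level such as 1.99 means 1.99 log2 units above a reference that is not given. Levels of different genes cannot be compared on this scale, nor can the presence of luminal markers be checked, whereas the difference between arrays is kept. The median gene was 0.11 higher on the tamoxifen array, and this shift was subtracted, so that differences below are relative log2 differences and 9887 genes lay below 0. Values quoted for single arrays are as deposited, without this step. The spread of the gene values, as a scaled median absolute deviation, was 0.20, with 25th and 75th percentiles of -0.13 and 0.14 and 1st and 99th percentiles of -0.62 and 0.57. In Affymetrix control probe sets, 18S ribosomal RNA (0.043 as deposited, median of 3) and the 3' minus 5' signals of ACTB (0.0058) and GAPDH (-0.0059) were close on the compared arrays. Transcripts spiked in before labelling read lower on the tamoxifen array in 24 of 24 probe sets (median -0.15 as deposited). Transcripts spiked into the hybridisation mix read -1.86 to -4.23 in the 9 probe sets of 1 design and 0.15 to 0.64 in the 9 of another. Whether this difference in spikes bears on any gene was not tested.

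Few genes separated the compounds by a wide margin, and those that did were mostly lower under tamoxifen. Of 19775 genes, 45 (0.228%) differed by at least 2-fold, with 40 (0.202%) lower and 5 (0.0253%) higher on the tamoxifen array. At a cutoff of 1.5-fold, 417 genes (2.11%) were counted, 242 (1.22%) lower and 175 (0.885%) higher. The excess on the lower side depends on the subtracted shift: in the values as deposited, 24 genes were at least 2-fold lower and 18 higher, and at 1.5-fold the counts were 122 lower and 424 higher. At the edges, KLF10 (-1.0005) and LINC02502 (1.010) were just inside 2-fold, and NUTM2A-AS1 (-0.9992) and NR2F1 (0.9994) just outside. SIT1 (-0.5852) and SIKE1 (0.5861) were just inside 1.5-fold, PURPL (-0.5837) and SDK2-AS1 (0.5837) just outside. Of the 45 genes past 2-fold, 38 were measured by a single probe set and 7 by several, all 7 on the lower side.

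**Figure D1:**
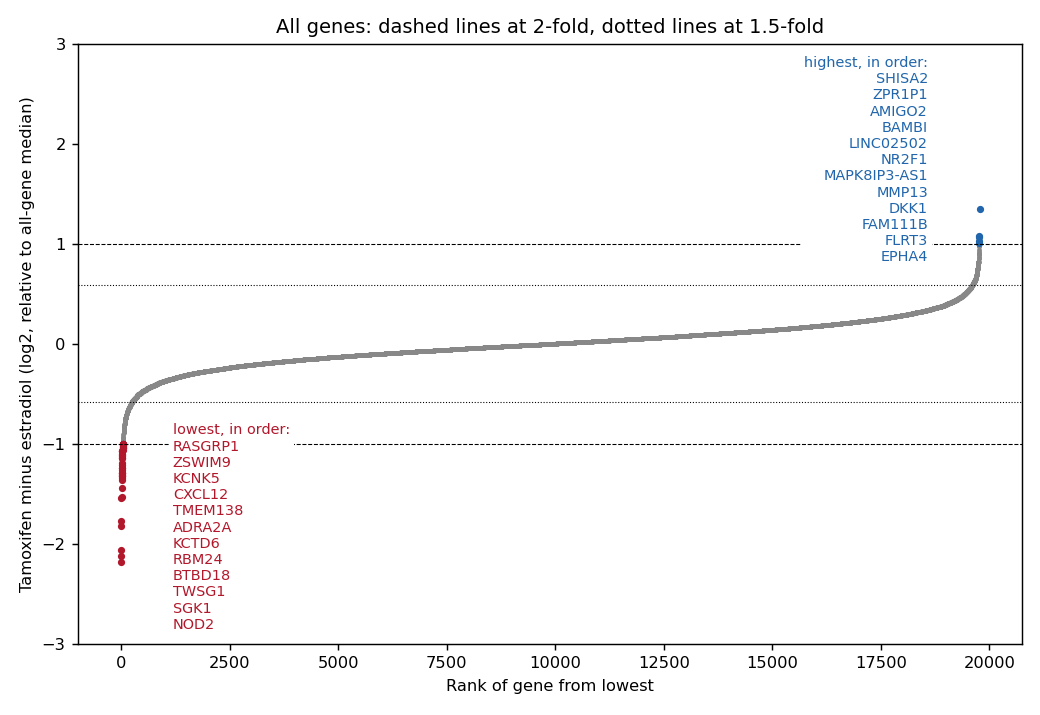
Relative log2 difference, tamoxifen minus estradiol, of each of 19775 genes (y axis) against its rank from the lowest (x axis); dashed lines mark 2-fold and dotted lines 1.5-fold, and genes past 2-fold are red (lower) or blue (higher). The lower end reaches -2.19 (RASGRP1) and the upper end 1.35 (SHISA2), with 40 red and 5 blue points.

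Agreement between probe sets of a gene, which read different stretches of its transcripts on the same arrays, was the available gauge of technical error. Across the 10523 genes with at least 2 probe sets, the first probe set by identifier correlated with the second at 0.10 (Pearson). This is a description across genes on shared arrays, and genes are not replicates. The first probe set was at least 2-fold lower under tamoxifen in 24 genes with a median of -1.27, and the mean of the others had a median of -0.099 in them, below 0 in 20 of the 24. In 5 of the 24 the other probe sets were also at least 1.5-fold lower on average, against 151 of all 10523 genes. These 5 were CXCL12, KCTD6, HEY2, PARD6B and ELOVL2. At the upper end the first probe set was at least 2-fold higher in 13 genes, and the others were at least 1.5-fold higher in 3 of them (ST8SIA1, EPHA4 and FAM111B), against 97 of all. A large value of a single probe set was therefore seldom matched by the others of its gene, and the 38 genes above that have 1 probe set have no such check.

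Genes that estrogen is known to induce were the group that stood furthest from the other genes, and they were lower under tamoxifen. Of 53 listed genes, 50 were measured, and 46 of these lay below 0 and 4 above. The median of the list was -0.46, where the median of all genes is 0 by construction. At least 1.5-fold lower were 17 of 50 (34.0%, against 1.22% of all genes), at least 2-fold lower 7 (against 0.202%), and none was 1.5-fold higher. As deposited, the median was -0.35 and 86.0% of members lay below 0. The list was drawn up with results of these arrays known for 17 of its genes. The 33 measured members without those 17 had a median of -0.36, with 30 below 0 and 8 at least 1.5-fold lower (24.2%). Only 1 of these 33 was at least 2-fold lower, so most of the 2-fold count came from members already known. Where a member had several probe sets, its first one and the mean of the others gave separate readings: over 31 such genes the medians were -0.48 and -0.39, and both readings were below 0 in 25.

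**Figure D2:**
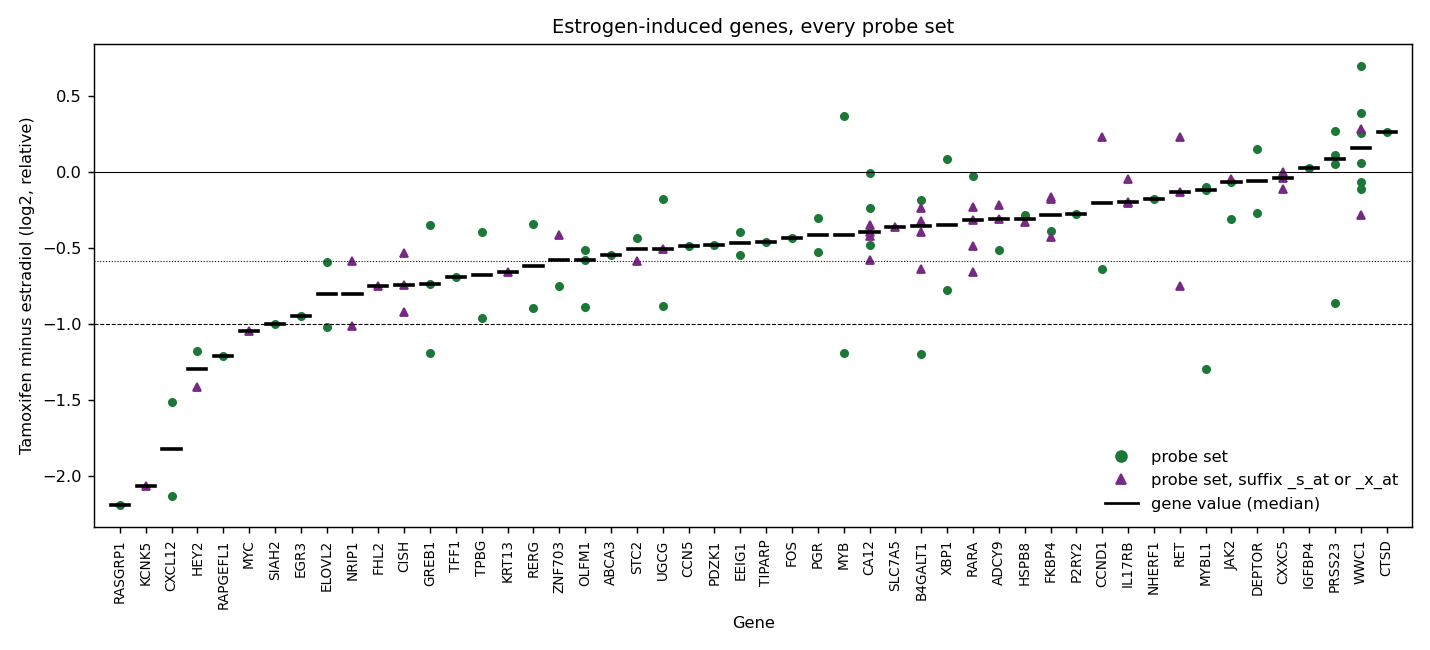
Relative log2 difference, tamoxifen minus estradiol (y axis), of every probe set of the 50 measured estrogen-induced genes (x axis, ordered by gene value); black bars are gene values, triangles are probe sets whose suffix marks a match to several transcripts. The genes run from RASGRP1 at -2.19 to CTSD at 0.27, with 46 bars below the line at 0.

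Among signalling members, RASGRP1, an exchange factor that activates Ras, was 4.55-fold lower under tamoxifen, the lowest of all genes. Its deposited value was 1.99 on the estradiol array, -0.084 on the tamoxifen array and 0.075 on the vehicle array. KCNK5, a potassium channel, was 4.17-fold lower, with values of 1.70 under estradiol, -0.24 under tamoxifen and -0.73 with vehicle. On both genes the estradiol array alone was high. RAPGEFL1, a relative of guanine nucleotide exchange factors, differed in the other way: it read -0.19 under estradiol and -0.0058 with vehicle, and -1.28 under tamoxifen, 2.31-fold lower. RASGRP1, KCNK5 and RAPGEFL1 were each measured by 1 probe set.

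CXCL12, a chemokine that signals through CXCR4, had 2 probe sets, at -2.13 and -1.51, and was 3.53-fold lower under tamoxifen. It read 1.12 on the estradiol array, -0.58 on the tamoxifen array and -0.14 on the vehicle array, so the tamoxifen value was below both others. TPBG, a membrane glycoprotein that affects WNT signalling, read 0.49, -0.077 and -0.12 in the same order and was 1.60-fold lower, with probe sets at -0.96 and -0.40. CISH, a feedback inhibitor of cytokine receptors, was 1.67-fold lower, and its 3 probe sets lay between -0.92 and -0.53. The promoters of CXCL12 and TPBG are shown because they are the members at least 1.5-fold lower whose stretch before the start carries an estrogen response half-site. Sequences are from RefSeq on GRCh38.p14, 250 bases before the transcription start, 5' to 3' on the gene's strand, with the half-site AGGTCA in capitals. That of CXCL12 lies at chr10:44385098-44385347, minus strand, with the half-site at position -209 from the start, and that of TPBG at chr6:82362733-82362982, plus strand, at position -21.
CXCL12: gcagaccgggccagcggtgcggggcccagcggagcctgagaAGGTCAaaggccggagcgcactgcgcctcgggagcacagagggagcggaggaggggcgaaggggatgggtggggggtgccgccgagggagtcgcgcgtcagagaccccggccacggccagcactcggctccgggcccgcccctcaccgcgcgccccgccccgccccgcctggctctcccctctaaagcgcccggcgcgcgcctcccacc
TPBG: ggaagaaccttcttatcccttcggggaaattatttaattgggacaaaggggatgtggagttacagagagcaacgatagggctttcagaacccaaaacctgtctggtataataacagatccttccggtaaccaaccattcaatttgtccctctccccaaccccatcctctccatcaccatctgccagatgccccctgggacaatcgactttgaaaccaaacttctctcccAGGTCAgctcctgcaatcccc

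Such half-sites were about as frequent in promoters of all genes. Windows of 300 bases around the start (250 before and 50 after) were searched on both strands, and a gene counted once if any of its windows held the letters. They were matched by symbol for 15384 genes, among them 36 of the 50 estrogen-induced genes. AGGTCA was found in 6 of the 36 (16.7%) and in 15.0% of all. The full element GGTCANNNTGACC, which can overlap a half-site, was found in 0 of the 36 and in 7 of 15384 (0.0455%). The AP-1 letters TGANTCA were in 0 of the 36 and 8.10% of all genes. The E-box CACGTG, the site of MYC and related factors, was in 7 of the 36 (19.4%) and in 10.9% of all. Promoters were matched for 181 genes at least 1.5-fold lower under tamoxifen and 121 at least 1.5-fold higher. In these the shares, lower genes first, were 16.6% and 9.92% for the E-box, 12.7% and 10.7% for the half-site, and 7.73% and 9.09% for the AP-1 letters. The full element was in 0 of either. A match describes letters in a window, and distant enhancers were outside these windows.

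Several regulators of transcription in the list were also lower under tamoxifen. MYC, which drives growth and ribosome production, read 1.71 under estradiol, 0.78 under tamoxifen and -0.47 with vehicle, and was 2.06-fold lower under tamoxifen. Its tamoxifen value thus lay between the others. SIAH2, a ubiquitin ligase that acts on corepressors, read 0.87, -0.018 and 0.018 in that order, 2.00-fold lower, with the tamoxifen and vehicle arrays close. EGR3, an early growth response factor, read 0.64, -0.19 and -0.0012 and was 1.93-fold lower. MYC, SIAH2 and EGR3 had 1 probe set each. HEY2, a repressor downstream of Notch, was 2.46-fold lower over 2 probe sets (-1.41 and -1.18). On HEY2 the tamoxifen array was low: the values were 0.18, -1.001 and 0.0067. NRIP1, a corepressor that is itself induced by estrogen, was 1.74-fold lower over 2 probe sets (-1.01 and -0.58), and read 0.95, 0.27 and -0.025. GREB1, a cofactor of the estrogen receptor, was 1.67-fold lower, with all 3 probe sets below 0 between -1.19 and -0.35. FHL2, a LIM-domain cofactor of nuclear receptors, was 1.68-fold lower over 1 probe set. The transcription factor MYB was at -0.41, but its probe sets read -1.19 and 0.37. Its relative MYBL1 was at -0.12 over 3 probe sets from -1.30 to -0.097.

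Other members of the list include enzymes, a receptor and secreted proteins. ELOVL2, which elongates polyunsaturated fatty acids, was 1.75-fold lower over 2 probe sets (-1.01 and -0.59), and it read 0.048 under estradiol, -0.64 under tamoxifen and 0.056 with vehicle. RERG, a Ras-like growth inhibitor, was 1.53-fold lower and KRT13, a keratin, 1.58-fold lower. PGR, the progesterone receptor, was 1.33-fold lower over 2 probe sets (-0.53 and -0.30). Both compounds had PGR above vehicle: it read 0.90 under estradiol, 0.60 under tamoxifen and -0.57 with vehicle. PDZK1, a scaffold protein, was at -0.48, STC2, a secreted glycoprotein, at -0.51, CA12, a carbonic anhydrase, at -0.39 over 7 probe sets, and RARA, a retinoic acid receptor, at -0.31 over 5. XBP1, a factor of the secretory pathway, was at -0.35, but its probe sets read -0.77 and 0.084. TFF1, the trefoil peptide often used as a marker of estrogen action, was low on both arrays, at -2.20 under estradiol and -2.77 under tamoxifen against -0.019 with vehicle. Its relative difference of -0.69 turned to 0.32 when the arrays were quantile normalized to each other. That setting ranked the centred values of all probe sets, control ones included. Whether the controls bear on the change in TFF1 was not tested.

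A few members showed little difference or pointed the other way. CCND1, the gene of cyclin D1, was at -0.20, with probe sets at -0.64 and 0.23. RET, a receptor tyrosine kinase, was at -0.13 over probe sets from -0.75 to 0.23. CXXC5, a zinc finger protein, was at -0.038 with 3 probe sets between -0.11 and -0.0022. The 4 members above 0 were IGFBP4, which binds insulin-like growth factors (0.029), the protease gene PRSS23 (0.085), WWC1, a Hippo pathway scaffold (0.16), and CTSD, a lysosomal protease (0.27). The 19 measured genes fixed by name are all members of this list except ESR1, so they give no separate reading. Of them 17 lay below 0 and 2 above, the latter being IGFBP4 and CTSD. AREG, RBBP8 and SGK3 were not measured by a probe set of a single gene.

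**Figure D3:**
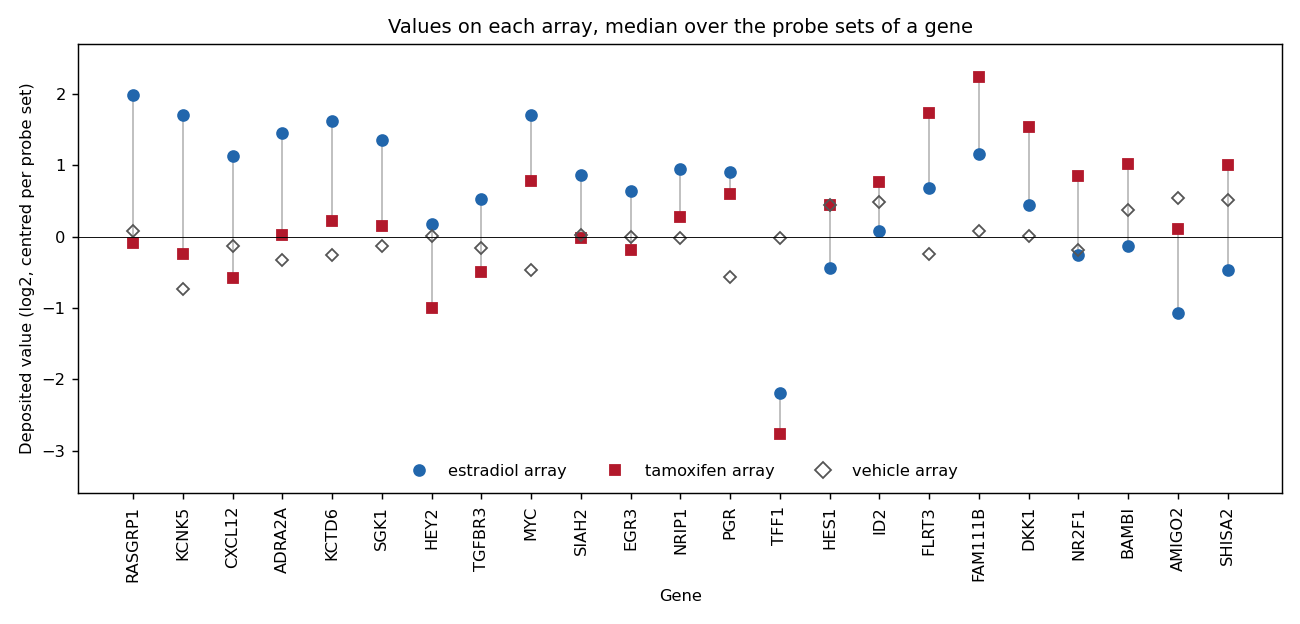
Deposited log2 values (y axis, centred per probe set; a gene with several takes their median) of 23 genes (x axis) on the estradiol array (blue circles), the tamoxifen array (red squares) and, for orientation, the vehicle array (open diamonds). RASGRP1 and SIAH2 have the tamoxifen square beside the vehicle diamond, HEY2 has the square alone at -1.001, and TFF1 has both treated points below -2.

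Further genes at the lower end came from several pathways. ADRA2A, an adrenergic receptor that inhibits adenylate cyclase, was 2.92-fold lower and read 1.46 under estradiol, 0.024 under tamoxifen and -0.32 with vehicle. KCTD6, an adaptor of cullin ubiquitin ligases, was 2.88-fold lower, with probe sets at -1.62 and -1.43 and array values of 1.62, 0.21 and -0.25. RBM24, an RNA-binding protein, was 2.71-fold lower, SGK1, a kinase induced by steroids and serum, 2.50-fold, and NOD2, a sensor of bacterial cell walls, 2.50-fold, each over 1 probe set. PFKFB3, whose product stimulates glycolysis, was 2.49-fold lower. SGK1 read 1.36, 0.15 and -0.13 and PFKFB3 0.86, -0.34 and 0.21. In these genes the estradiol array was the high one. ZSWIM9 (4.34-fold lower), TMEM138, a protein of primary cilia (3.40-fold), and BTBD18 (2.57-fold) formed a different pattern, with low tamoxifen values of -1.91, -1.76 and -1.90. Their estradiol values were 0.092, -0.11 and -0.65, and each rests on 1 probe set. TWSG1, which modulates BMP signalling, had a value of -1.34 from discordant probe sets at -2.44 and -0.24.

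**Figure D4:**
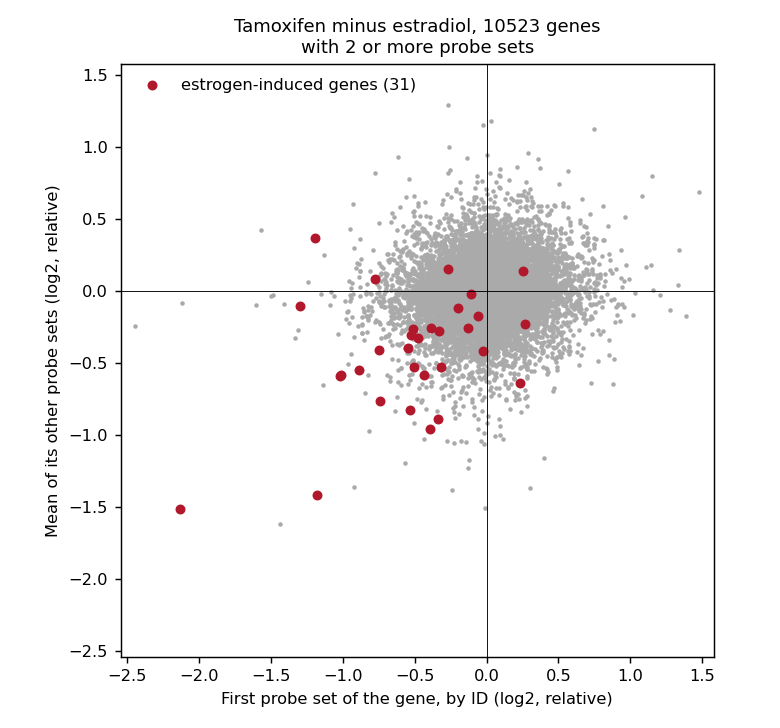
Relative log2 difference, tamoxifen minus estradiol, of the first probe set of a gene (x axis) against the mean of its other probe sets (y axis), for 10523 genes (grey) and for the 31 estrogen-induced genes among them (red). Most grey points form a round cloud, and 25 of the 31 red points have both readings below 0.

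Genes on which all probe sets agreed were picked by the probe set nearest to 0. On the lower side CXCL12, KCTD6 and HEY2 led, followed by TGFBR3, the coreceptor betaglycan for TGF-beta. TGFBR3 was 2.20-fold lower, with probe sets at -1.36 and -0.92, and read 0.53 under estradiol, -0.50 under tamoxifen and -0.16 with vehicle. FMN1, a formin that nucleates actin filaments, was 1.86-fold lower over 3 probe sets from -1.05 to -0.82. MREG, a regulator of melanosome transport, was 1.71-fold lower, PXK, a sorting protein of endosomes, 1.66-fold over 4 probe sets, and MAN1A1, a mannosidase of the Golgi, 1.60-fold. EVX1, a homeobox factor (-0.63), TNFSF13B, the B cell factor BAFF (-0.62), and SPAST, which severs microtubules (-0.62), completed this set together with ELOVL2. Over all genes with several probe sets, 3 had every probe set at least 2-fold lower and 11 at least 1.5-fold lower, while 0 and 3 were higher by those cutoffs.

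Relative to the median gene, fewer genes were higher under tamoxifen than lower. Those with concordant probe sets were again picked by the probe set nearest to 0. By that rule HES1 (0.76) and LGR5 (0.62) fell outside, although all their probe sets were above 0. The 12 genes picked were the following. FAM111B, a protease linked to DNA replication, was 1.96-fold higher with probe sets at 0.80 and 1.15, and its array values were 1.15 under estradiol, 2.24 under tamoxifen and 0.080 with vehicle. FLRT3, an adhesion protein that promotes FGF signalling, was 1.91-fold higher (0.75 and 1.12) and read 0.68, 1.73 and -0.25. On both genes the treated arrays were above vehicle and the tamoxifen array was the highest. ST8SIA1, which synthesises the ganglioside GD3, was 1.83-fold higher (0.66 and 1.08), and here the estradiol value (-0.079) was near that of vehicle (0.051). Next in this set came ANKRD30B (0.70), ENC1, an actin-associated protein (0.63), and BHLHE22-AS1 (0.62). LMOD1, an actin nucleator of smooth muscle (0.57), and ID2, an inhibitor of helix-loop-helix factors (0.57), followed. AASS, an enzyme of lysine breakdown (0.57), MYO16, a myosin (0.56), DNMBP, an exchange factor for Cdc42 (0.54), and GALNT10, which starts mucin-type glycosylation (0.51), completed the set with concordant probe sets.

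The highest values of all belonged mostly to genes with 1 probe set. SHISA2, which holds back receptors for WNT and FGF, was 2.55-fold higher under tamoxifen and read -0.47 under estradiol, 1.0002 under tamoxifen and 0.52 with vehicle. AMIGO2, an adhesion protein, was 2.10-fold higher and read -1.07, 0.11 and 0.54, and BAMBI, a decoy receptor of the TGF-beta family, was 2.05-fold higher at -0.13, 1.02 and 0.37. The estradiol array was the lowest of the series in SHISA2, AMIGO2 and BAMBI. NR2F1, the orphan nuclear receptor COUP-TFI, was 2.00-fold higher (-0.27, 0.85 and -0.19), DKK1, a secreted WNT antagonist, 1.97-fold (0.44, 1.53 and 0.0013), and MMP13, a collagenase, 1.97-fold. The pseudogene ZPR1P1 (1.08) and the noncoding transcripts LINC02502 (1.01) and MAPK8IP3-AS1 (0.996) were among the 12 highest. A pseudogene's probe set can also match its parent gene. EPHA4, an ephrin receptor, had a value of 0.94 from 5 probe sets that ranged from -0.13 to 1.48.

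Genes reported to be repressed by estrogen leaned to the opposite side from the induced ones, by a smaller amount. Of 26 measured, 18 lay above 0 and 8 below, with a median of 0.12, and 1 was at least 1.5-fold higher (3.85%, against 0.885% of all genes). That gene was HES1, a repressor downstream of Notch, at 1.70-fold higher with 3 probe sets from 0.42 to 0.81 and array values of -0.44 under estradiol, 0.44 under tamoxifen and 0.45 with vehicle. Without probe sets that can match several transcripts the list median was 0.038. Among members within 1.5-fold, ID1 was at 0.49, CCN2, a matrix protein, at 0.41, SMAD6 at 0.40, ID3 at 0.38 and ERBB2, the HER2 receptor, at 0.38, but KLF4 was at -0.48 and PSCA at -0.58.

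Genes of TGF-beta and BMP signalling, which share ID1, ID3 and SMAD6 with that list, had a median of 0.18 (13 of 22 above 0). Of these 22 genes, 2 were at least 1.5-fold higher, BAMBI and the BMP antagonist NOG (0.66), and 1 was lower, TWSG1. These are 9.09% and 4.55% of the list, against 0.885% and 1.22% of all genes. The inhibitory SMAD7 was at 0.53, below that cutoff. Without probe sets that can match several transcripts the median was 0.012. Notch genes had a median of 0.10 (13 of 18 above 0) and held members at opposite ends, HES1 at 0.76 and HEY2 at -1.30. In the WNT list (median 0.13, 10 of 15 above 0), DKK1 and the R-spondin receptor LGR5 (0.62) were at least 1.5-fold higher (13.3%, against 0.885% of all genes). Targets of YAP had a median of 0.13 (9 of 14 above 0) and none past 1.5-fold.

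The receptor through which both ligands act differed little between the arrays, while some cofactor genes were lower under tamoxifen. ESR1, which encodes estrogen receptor alpha, was at -0.096 over 9 probe sets from -0.33 to 0.29. Nuclear receptors had a median of 0.031 (14 of 24 above 0), with NR2F1 past 1.5-fold. Cofactors had a median of -0.022 (15 of 28 below 0), which turned to 0.092 as deposited, and 3 members were at least 1.5-fold lower (10.7%, against 1.22% of all genes): NRIP1, GREB1 and CITED1, a coactivator (-0.59). NRIP1 and GREB1 are also in the estrogen-induced list. Pioneer and luminal factors had a median of 0.0031 (11 of 22 above 0), with FOXA1, which opens chromatin for the receptor, at 0.24 and GATA3 at 0.028. In targets of the glucocorticoid and progesterone receptors the median was 0.073 (11 of 18 above 0), and SGK1 was the member past 1.5-fold.

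Growth-related lists lay slightly below 0. Ribosome biogenesis genes, many of them MYC targets, had a median of -0.14 (-0.023 as deposited), with 19 of 23 below 0. At least 1.5-fold lower were 2 (8.7%, against 1.22% of all genes). They were RRN3, an initiation factor of RNA polymerase I (-0.87), and RRS1, an assembly factor (-0.69). The MYC, MAX and MXD network had a median of -0.034 (8 of 12 below 0; 0.081 as deposited), with MYC past 1.5-fold. G1/S genes had a median of -0.088 (20 of 32 below 0), G2/M genes -0.037 (20 of 30), cytosolic ribosomal proteins -0.10 (13 of 15), oxidative phosphorylation genes -0.045 (17 of 21) and canonical histones -0.13 (8 of 8). None of the members of these 5 lists was past 1.5-fold, and except for histones (-0.013) their medians were above 0 as deposited.

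Early response and growth factor genes were mixed. For immediate early genes the median stood at -0.077 (16 of 28 below 0; 0.038 as deposited). MYC, EGR3 and KLF10, an early gene of TGF-beta signalling (2.00-fold lower), were at the lower end. These 3 were the members at least 1.5-fold lower (10.7%, against 1.22% of all genes). On the other side JUNB, an AP-1 subunit, was 1.57-fold higher (1 of 28, or 3.57%, against 0.885% of all genes). JUNB read -0.64 under estradiol, 0.13 under tamoxifen and 1.24 with vehicle. FOS, another AP-1 subunit, was at -0.43. Feedback genes of the MAPK pathway had a median of 0.099 (14 of 22 above 0; -0.015 without probe sets that can match several transcripts) and none past 1.5-fold. ERBB receptors and ligands had a median of 0.050 (12 of 16 above 0), with the ligand NRG4 1.71-fold lower. The IGF pathway had a median of 0.029 (10 of 19 above 0) and no member past 1.5-fold. Ion channels had a median of -0.020 (11 of 17 below 0, and 0.095 as deposited). KCNK5 and KCNK6 (-0.71) were at least 1.5-fold lower (11.8% of the list, against 1.22% of all genes). Calcium and calmodulin genes had a median of 0.084 (11 of 20 above 0).

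With the shift subtracted, interferon-stimulated genes were the other list with a median more than 0.2 from 0. It was at -0.22 (-0.11 as deposited), and 16 of 21 members lay below 0. At least 1.5-fold lower were 2 of them (9.52% of the list, against 1.22% of all genes). These were IFIH1, the RNA sensor MDA5 (-0.67 over probe sets from -1.06 to -0.19), and RSAD2, the antiviral protein viperin (-0.75 and -0.48). RSAD2 read 0.40 under estradiol, -0.099 under tamoxifen and 0.025 with vehicle, so the estradiol array was the high one. In the 11 members with several probe sets the first reading and the mean of the others had medians of -0.23 and -0.22, both below 0 in 8. The NF-kB list had its median at 0.069 (14 of 22 above 0) and chemokines and their receptors 0.051 (8 of 14 above 0). CCL2, a chemokine in both lists, was 1.70-fold higher over 1 probe set, and CXCL12 was the lowest chemokine.

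Stress pathways differed little between the compounds. In the ATF4 list the median was -0.097 (19 of 28 below 0; 0.018 as deposited), with VLDLR, a lipoprotein receptor, 1.63-fold lower and DDIT4, an inhibitor of mTORC1, 1.52-fold higher. DDIT4 read -0.66 under estradiol, 0.054 under tamoxifen and 1.52 with vehicle. Targets of NRF2 had a median of -0.11 (14 of 20 below 0; 0.0088 as deposited), with OSGIN1, an oxidative stress gene, 1.56-fold lower. Heat shock genes had a median of -0.094 (13 of 17 below 0; 0.021 as deposited), chaperones of the endoplasmic reticulum -0.060 (11 of 20; 0.055 as deposited), and metallothioneins with zinc transporters -0.13 (11 of 18 below 0; 0.013 without probe sets that can match several transcripts), with none past 1.5-fold. Targets of p53 had a median of 0.0080 (11 of 20 above 0) and the BCL2 family 0.11 (11 of 15 above 0). PMAIP1, the pro-apoptotic protein NOXA and a member of both, was 1.56-fold lower, with probe sets at -0.69 and -0.58.

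In the lists of lipid metabolism no member was past 1.5-fold, and those of drug metabolism and glycolysis held 1 and 2 such genes. Tamoxifen is known to inhibit enzymes of late cholesterol synthesis. None of 22 genes of cholesterol synthesis and uptake was past 1.5-fold (median -0.053, 12 below 0, and 0.062 as deposited), with all values between -0.27 and 0.28. Of all genes 2.11% were past 1.5-fold, so none in a list of this size is close to the overall share. Genes of fatty acid synthesis had a median of -0.063 (9 of 14 below 0; 0.052 as deposited), LXR targets 0.0063 (6 of 11 above 0) and lysosome genes 0.0011 (11 of 21 above 0), again with none past 1.5-fold. The aryl hydrocarbon receptor list had its median at 0.063 (8 of 12 above 0), with CYP1A1 at 0.14 and CYP1B1 at 0.039. Drug-metabolising enzymes and transporters had a median of -0.012 (11 of 20 below 0, and 0.10 as deposited). UGT1A1, a glucuronosyltransferase, was 1.57-fold higher (5% of the list, against 0.885% of all genes), although transcripts of its locus share most of their sequence. Hypoxia and glycolysis genes had a median of -0.038 (16 of 28 below 0, and 0.076 as deposited). PFKFB3 and ARRDC3, an arrestin-like protein (-0.62), were at least 1.5-fold lower (7.14% of the list, against 1.22% of all genes).

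Marker lists of other cell types did not stand apart from the other genes by more than 0.2. The medians were 0.15 for 9 basal and myoepithelial markers, 0.044 for 14 fibroblast markers, 0.12 for 11 immune markers and 0.045 for 12 endothelial markers. HLA-DRA, a class II histocompatibility gene, was the marker past 1.5-fold, at 1.51-fold lower. It is 1 of the 11 immune markers (9.09%, against 1.22% of all genes). Of all 44 lists, 42 had a median within 0.2 of 0 once the shift was subtracted, and 21 had no member past 1.5-fold. Of all genes, 2.11% were past 1.5-fold. As deposited, with the median gene at 0.11, several list medians exceeded 0.2. Among them were TGF-beta and BMP genes (0.30), basal and myoepithelial markers (0.27) and the WNT list (0.24). The interferon list was at -0.11 as deposited.

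**Figure D5:**
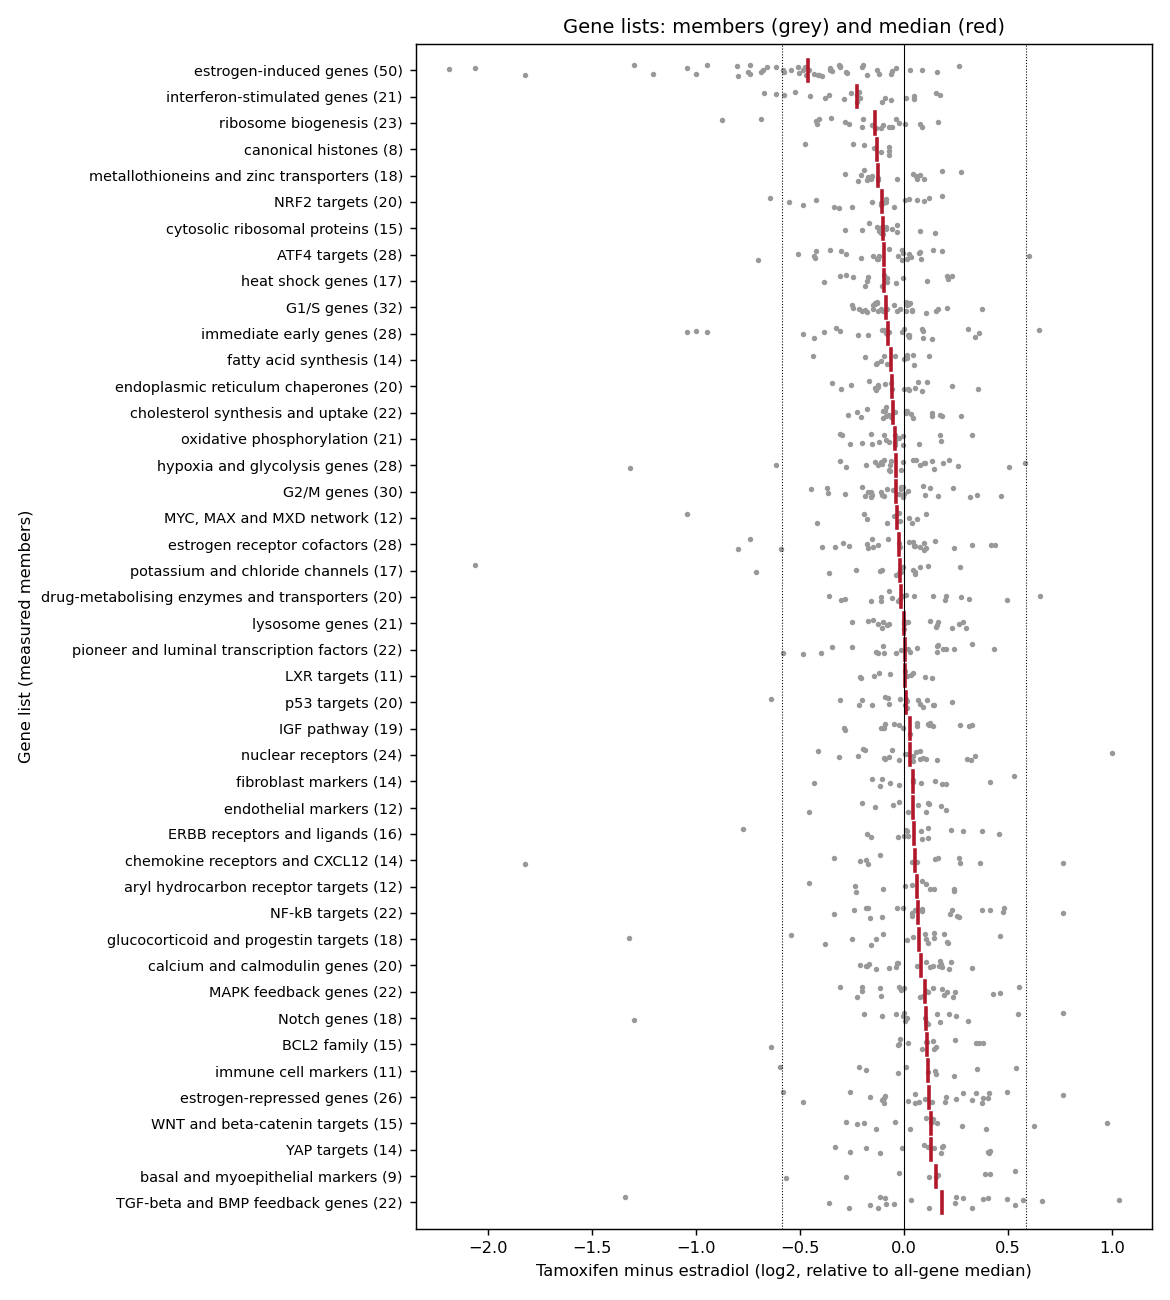
Relative log2 difference, tamoxifen minus estradiol (x axis), of the members (grey points) of 44 gene lists (y axis, with the number measured) and the median of each list (red bar); dotted lines mark 1.5-fold. The bar of the estrogen-induced genes lies at -0.46, that of the interferon-stimulated genes at -0.22, and all others within 0.2 of 0.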

How the data were processed

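RNA of 3 cultures was measured on Affymetrix arrays of 54675 probe sets, and the arrays were grouped by the treatment in the labels, 1 per group. The authors made the deposited log2 values with RMA, a tool named without a version in the submitters' processing notes. Each probe set had also been centred, a step that no label records, so levels are lost and no filter on low signal was possible. Log base 2 is taken from RMA. Control probe sets, 1801 probe sets of several genes and unnamed ones were left out, and 41091 remained. Gene symbols were those of the platform annotation; the identifiers of 41037 probe sets matched a gene table of GRCh38.p14, with 0 symbols changed. Differences, medians and counts were computed in Python 3.11.15 with pandas 2.3.3, and the calculations were tested on simulated data. Members and lists were chosen with earlier results of these data known. Named were the 12 highest and 12 lowest genes, the 12 at each side with concordant probe sets, up to 4 members past 1.5-fold of each of 44 lists, and 19 measured genes fixed by name. Other members were named after their values were seen. Alternatives were no centring, no _s_at or _x_at probe sets, means over probe sets, quantile normalization and counts limited to concordant probe sets. The quantile normalization ranked all probe sets of an array, control ones included. With 1 array per group the number of arrays limits all precision.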

Additional observations from a re-analysis of the deposited data

Results flagged for a closer look

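The hybridisation controls enter no gene value of the main setting, but were ranked with all other probe sets in the quantile normalization. In them the tamoxifen array read -3.16 against the estradiol array as deposited (median of 9 probe sets for BioB, BioC, BioD and Cre, 9 of 9 lower). These values stood out by their size, and the vehicle array was not compared at these probe sets. The 9 probe sets of a second design for the same transcripts read 0.49 (median, 9 of 9 higher). Its part in the gene values was not tested.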

How the results depend on the processing

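No paired analysis was possible because each group had 1 array. Without the subtraction of the all-gene median, 2-fold counts were 18 higher and 24 lower instead of 5 and 40, and 1.5-fold counts 424 higher and 122 lower instead of 175 and 242. Without _s_at and _x_at probe sets, 8 genes were at least 2-fold higher. Limited to genes whose 2 or more probe sets were all past the cutoff, 3 genes remained at 2-fold (0 higher, 3 lower) and 14 at 1.5-fold (3 higher, 11 lower). This setting counts 10523 genes and leaves out 38 of the 45 genes past 2-fold, which have 1 probe set. It also needs every probe set past the cutoff, so by construction its counts cannot exceed the main ones. Why 8 rather than 5 genes were higher without _s_at and _x_at probe sets was not tested. The median of estrogen-induced genes lay between -0.48 and -0.35 over the 4 alternatives run on all lists, and that of estrogen-repressed genes between 0.038 and 0.23. TFF1 turned from -0.69 to 0.32 with quantile normalized arrays, and no other named gene past 1.5-fold changed sign. Control probe sets were ranked with the rest in that setting, and their part in the change was not tested. Without _s_at and _x_at probe sets, 67 of the 82 named genes still had a value, and MYC and KCNK5 were among those without one. Of the 67, TWSG1 moved to -0.24, RARA to -0.023 and CCND1 to -0.64.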

Other observations

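Among 16520 protein-coding genes, 0.708% were at least 1.5-fold higher under tamoxifen and 1.19% lower. Among 2656 long noncoding genes the shares were 1.77% and 1.28%, with medians of 0.011 for noncoding and -0.00065 for coding genes. Genes with a symbol of ZNF and a number, most of which encode zinc finger proteins, were looked at after several appeared near the lower end. Of 502 such genes 9 were at least 1.5-fold lower and 2 higher (1.79% and 0.398%, against 1.22% and 0.885% of all genes). The 4 past 2-fold, all lower, were ZNF623 (-1.15), ZNF670 (-1.11), ZNF492 (-1.07) and ZNF850 (-1.02). Of all 19775 genes, 40 (0.202%) were 2-fold lower. Because the family was chosen by members at that end, its counts there give no separate reading. The median of the 502 genes was -0.031. ND6, encoded by the mitochondrial genome, was at -1.29 over 1 probe set, while the mitochondrial genes COX1, ATP6, ND2 and ND4 were at -0.18, -0.076, -0.033 and -0.057.

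Of 11721 probe sets without a gene symbol, 18 were at least 2-fold lower and 5 at least 2-fold higher under tamoxifen, with a median of 0.00024. These are smaller shares than among the 41091 probe sets of 1 gene, where 133 were lower and 55 higher. The lowest was 243806_at, which read 0.92 under estradiol, -0.53 under tamoxifen and 0.27 with vehicle. Next was 243168_at, at 1.39, 0.10 and -1.11. The highest was 239046_at, at 0.54, 2.01 and -0.39.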
